A study of Mus musculus with 12 samples.

Results

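The chemokine ligand genes of the mouse were followed in splenic CD4+ T cells activated through the T cell receptor with or without metformin and FK506. The members were the protein-coding rows of the gene table whose symbol is Ccl or Cxcl followed by a number and at most a single letter, together with Xcl1 and Cx3cl1, which gave 37 genes of 45777. CD4+ T cells of wild type C57BL/6 mice, aged 7 weeks per the labels, were purified from spleen on magnetic beads and cultured for 3 days with anti-CD3 at 0.5 µg/ml. All 4 groups received anti-CD3, and they differed in the drug added, which was none (Control), metformin (an activator of the energy sensor AMPK), FK506 (tacrolimus, which blocks the phosphatase calcineurin) or both (Metformin+FK506, the combination). Each group had 3 samples, 12 in all, and sequencing was of poly(A) RNA. The methods of the study add soluble anti-CD28 and the labels do not, and neither gives the drug doses of these cultures. Neither the labels nor the methods say whether the samples of a group came from separate mice or cultures, so p-values measure the spread between these samples, which may be technical.

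Chemokines are small secreted proteins that direct cell migration by binding G protein-coupled receptors, and they are classed by the spacing of their first cysteines into CC, CXC, XC and CX3C types. Activated T cells are known sources of Ccl3, Ccl4, Ccl5 and Xcl1, whereas many CXC ligands are typically made by myeloid or stromal cells. Calcineurin, the target of FK506, activates the transcription factor NFAT downstream of the T cell receptor.

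Markers of the labelled cell type were present throughout, and markers of other cells differed between the groups. The 10 T cell markers, Cd4 included, summed to between 1978 and 2477 FPKM (fragments scaled to transcript length and library size, a level that can be compared between genes), and none was at 0 in any group. The 10 macrophage or monocyte markers summed to between 4.30 and 4.48 FPKM in Control and between 8.42 and 9.71 with metformin, against 1321 to 1370 with FK506 and 891 to 1011 under both drugs. The lower sum under both drugs lay in Lyz2, which fell from a mean of 981 FPKM with FK506 to 539 (log2 fold change -0.84, adjusted p = 6.01e-07), whereas the other 9 markers summed to 343 to 377 and 393 to 408 FPKM and C1qb, C1qc and Cd68 rose. C1qa, C1qc, Adgre1 and Fcgr1 were at 0 in all Control samples, whereas none of the list was at 0 in the FK506 or Metformin+FK506 groups. The 10 B cell markers summed to 62.9 to 66.9 FPKM in Control, 87.2 to 102 with metformin, 886 to 926 with FK506 and 427 to 458 under both drugs. In each FK506-containing group against Control, the 9 B cell markers that did not need the FK506 cultures to pass the filter on low values (0.5 FPKM in at least 3 samples) rose, as did Cd68. The other 8 macrophage markers tested passed only through those cultures, so their higher level there is a description. The 8 neutrophil markers summed to 2.88 to 3.15 FPKM in Control, 31.2 to 40.7 with FK506 and 21.2 to 21.3 in Metformin+FK506, but nearly all of the Control sum was Ly6g, which fell from a mean of 3.03 FPKM to 0.132 with metformin, 0.175 with FK506 and 0.255 in Metformin+FK506, while the 5 others tested passed the filter only through the FK506-containing cultures. The 8 stromal or endothelial markers summed to 9.69 to 10.2, 46.7 to 53.4 and 54.2 to 58.7 FPKM in Control, FK506 and Metformin+FK506, and the 6 platelet markers to 0.541 to 0.830, 11.5 to 18.3 and 11.5 to 19.8. The 6 NK cell markers summed to 1.28 to 1.52, 13.9 to 14.8 and 12.9 to 13.8 FPKM, most of it Eomes, which T cells also express, and the 6 basophil markers to 0.0516 to 0.192, 6.29 to 11.8 and 1.08 to 1.56. The 8 dendritic cell markers summed to 61.2 to 63.4, 87.0 to 91.3 and 54.3 to 56.7 FPKM, and in Control most of this was Batf3, at a mean of 59.2. The 2 CD8 markers did not exceed 13.2 FPKM in any sample. In bulk RNA, fewer cells of a type and less RNA per cell cannot be told apart, and the part of other cells in the chemokine values below was not tested.

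Of the 37 ligand genes, 10 reached a mean of 0.5 FPKM in Control, 12 with metformin, 23 with FK506 and 20 under both drugs. The level summed over the 37 genes was 343 ± 5.31 FPKM (SD, n = 3) in Control, 148 ± 9.47 with metformin, 553 ± 19.7 with FK506 and 311 ± 11.5 under both drugs. Ccl5 alone made up 74.3% of this sum in Control, against 34.8% with metformin, 34.5% with FK506 and 29.1% under both drugs. The next largest shares belonged to Ccl4 in Control and Metformin (13.2% and 32.4%), to Ccl22 with FK506 (26.3%) and to Cxcl16 with the combination (30.5%, just above Ccl5). The sum with metformin was lower than in Control in every sample, and the sum with FK506 was higher than in every other sample.

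**Figure D1:**
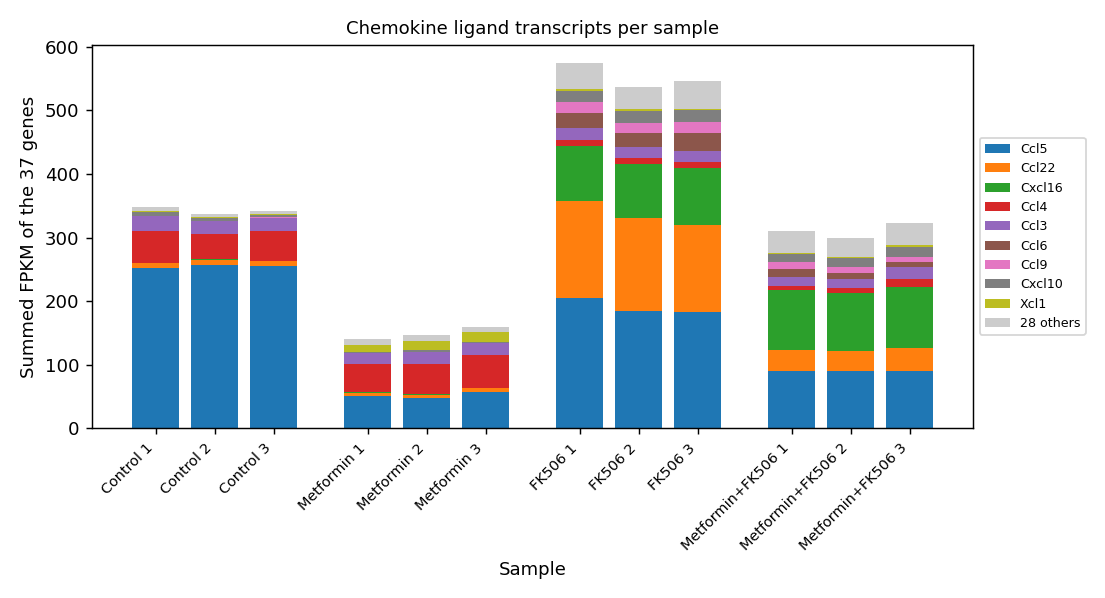
Summed level (FPKM) of the 37 chemokine ligand genes in each of the 12 samples, stacked by gene, with the 28 smaller contributors in grey. Ccl5 fills 74.3% of the Control bars, and Cxcl16 takes up 15.7% with FK506 and 30.5% under both drugs.

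Of the 37 genes, 23 passed the filter of 0.5 FPKM in at least 3 samples and were tested. Of these, 10 passed only through cultures that contained FK506 (Ccl2, Ccl6, Ccl7, Ccl9, Cx3cl1, Cxcl1, Cxcl12, Cxcl2, Cxcl5 and Cxcl9), so their levels with and without FK506 are a description with no p-value given, and counts and medians with FK506 carry no weight as support. Over the 23, FK506 alone gave 17 higher and 5 lower against Control, and over the other 13 it gave 7 higher and 5 lower (quasi-likelihood test of edgeR, Benjamini-Hochberg adjusted p under 0.05 over 15197 genes), in a comparison that called 80.9% of all genes tested (41.3% higher and 39.6% lower). The median log2 fold change was 3.97 over the 23, 1.07 over the other 13 and 0.024 over all genes. Of the 13, Ccl1, Ccl17 and Ccl20 reached 0.5 FPKM in only 2 samples without FK506. They too needed an FK506-containing culture to pass, so the counts and medians of the 13 are not free of the filter. The combination gave 14 higher and 4 lower of the 23 against Control and 4 of each of the 13, where 81.7% of all genes were called (42.1% higher and 39.6% lower), with medians of 1.85 over the 23, 0.34 over the 13 and 0.033 over all genes. Metformin alone raised 4 and lowered 6, where 56% of all genes were called (28.6% higher and 27.4% lower), with a median of 0 against 0.011. DESeq2 called 10 lower with metformin in place of 6, and the genes it added (Ccl2, Ccl7, Cx3cl1 and Cxcl1) were at or near 0 without FK506. These 3 comparisons share the Control samples. Adding metformin to FK506 raised 3 genes (Ccl20, Cxcl12 and Cxcl9) and lowered 5 (Ccl22, Ccl5, Ccl6, Ccl9 and Cx3cl1), where 30.7% of all genes were called (15.6% higher and 15% lower), with a median of -0.40 against 0.0019. With limma on log2(FPKM + 1) 9 were lower in place of 5. The combination against metformin alone gave 15 higher and 6 lower of the 23, and 5 and 6 of the 13, where 78.2% of all genes were called (40.3% higher and 37.9% lower), and limma without quantile normalization called 3 lower in place of 6 on each of the FPKM and TPM scales tried. The interaction, which asks whether the log2 change with metformin was the same with and without FK506, was called for 10 of the 23, positive for 4 and negative for 6, where 46.5% of all genes were called (22.5% positive and 24% negative).

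**Figure D2:**
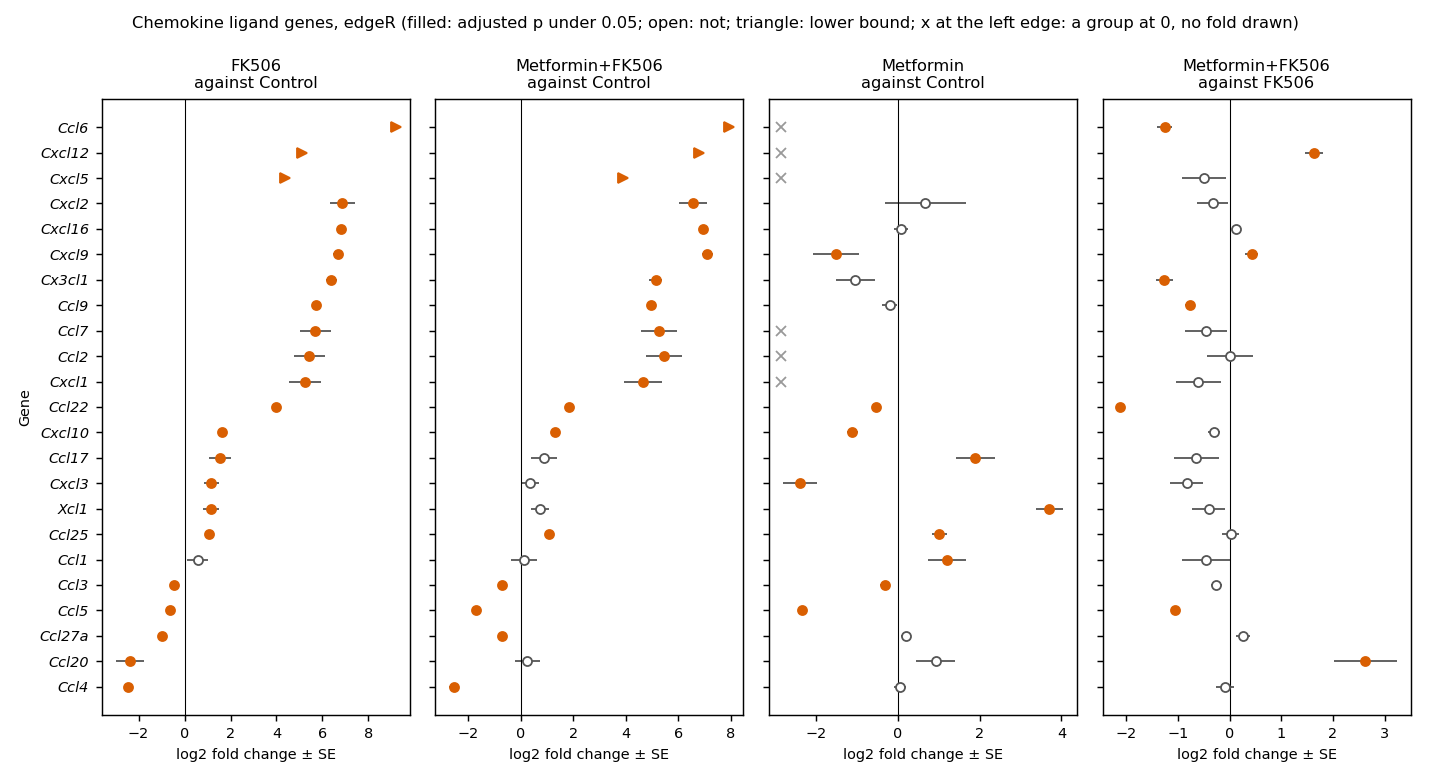
Log2 fold change (edgeR, with the SE) of the 23 tested ligand genes in 4 comparisons, ordered by the change with FK506. Filled points passed an adjusted p of 0.05, triangles are lower bounds for genes at 0 in the reference group, and crosses mark a group at 0 for which no fold is drawn. With FK506, 17 called genes lie to the right of 0 and 5 to the left, in a comparison that called 80.9% of all genes. Of the 17, 10 passed the filter only through cultures with FK506, so their position is a description. The small fall of Ccl3 with FK506 is no longer below 0 on the TPM scale.

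The inflammatory CC ligands Ccl3, Ccl4, Ccl5, Ccl6 and Ccl9 split into those that T cells are known to make (the first 3) and Ccl6 and Ccl9, which are known as products of myeloid cells. All 5 lie in the chemokine cluster on chromosome 11, between chr11:83525778 and chr11:83664683 (RefSeq, GRCm38.p6). Ccl5 (gene ID 20304), a ligand of CCR1 and CCR3, was measured at 253, 256 and 255 FPKM in Control and at 50.9, 46.9 and 57.0 with metformin. With FK506 it was 205, 185 and 182 FPKM, and with the combination 89.7, 90.7 and 90.7. The 4 groups did not overlap, in the order Control, FK506, Metformin+FK506 and Metformin. Metformin lowered Ccl5 5.04-fold (log2 fold change -2.33, SE 0.0605, adjusted p = 2.08e-14), FK506 lowered it 1.55-fold (-0.63, SE 0.0559, adjusted p = 2.13e-08), and metformin added to FK506 lowered it 2.08-fold (-1.05, SE 0.0578, adjusted p = 1.88e-09). The fall with metformin was therefore smaller in the presence of FK506, with an interaction of 1.28 on the log2 scale (SE 0.0824, adjusted p = 2.78e-09).

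Ccl4, which attracts T cells and monocytes, fell with FK506, and no change with metformin alone was detectable. Its levels were 50.0, 39.8 and 46.6 FPKM in Control, 44.7, 48.5 and 51.0 with metformin, 9.11, 9.88 and 9.19 with FK506, and 6.59, 7.36 and 12.4 under both drugs. Every culture with FK506 was below every culture without it. FK506 lowered Ccl4 5.52-fold (log2 fold change -2.47, SE 0.16, adjusted p = 3.77e-10), whereas the change with metformin alone was 0.055 (SE 0.144, adjusted p = 0.776). The combination did not differ from FK506 beyond the spread (-0.085, SE 0.171, adjusted p = 0.75), but without the highest sample, Metformin+FK506 replicate 3, the difference was called (-0.40, adjusted p = 0.0172), and so was the interaction (-0.44, adjusted p = 0.0189).

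Ccl3, which binds CCR1 and is the neighbour of Ccl4, moved much less. Its levels were 23.8, 20.1 and 21.1 FPKM in Control, 16.5, 18.0 and 18.8 with metformin, 19.8, 17.2 and 18.3 with FK506, and 14.1, 13.3 and 18.3 under both drugs. Against Control the log2 fold change was -0.32 with metformin (SE 0.108, adjusted p = 0.0198), -0.45 with FK506 (SE 0.108, adjusted p = 0.00121) and -0.70 with the combination (SE 0.109, adjusted p = 1.73e-05). The FK506 change depended on scaling, since with limma it did not pass on log2(FPKM + 1) (-0.22, adjusted p = 0.0674) or log2(FPKM + 0.1) (-0.23, adjusted p = 0.0716), and on log2(TPM + 1) it was 0.0070 (adjusted p = 0.951), on a scale where the median of all genes was 0.42. The call for metformin was lost without Control replicate 1 (-0.25, adjusted p = 0.095) or Metformin replicate 1 (-0.27, adjusted p = 0.0761), and without Metformin+FK506 replicate 3 the combination fell below FK506 (-0.41, adjusted p = 0.00512). The ratio of Ccl4 to Ccl3 within a sample, which no scaling between samples touches, was 2.10 ± 0.112 in Control (SD, n = 3), 2.71 ± 0.00807 with metformin, 0.512 ± 0.0569 with FK506 and 0.565 ± 0.105 under both drugs. Both FK506-containing groups lay below both groups without it, at an exact two-sided permutation p of 0.1 against Control for each drug group, which is the smallest that 3 samples against 3 allow. The annotated spans of Ccl3 (chr11:83647843-83649378, minus strand) and Ccl4 (chr11:83648624-83664683, plus strand) overlap by 755 bases, and whether the counting used strand is not stated in the sources used here.

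Ccl6 and Ccl9 were at or near 0 in cultures without FK506. Ccl6 had no count in any Control or Metformin sample, and stood at 22.3, 22.1 and 28.7 FPKM with FK506 and at 11.7, 10.0 and 8.29 under both drugs. Taking 3 counts per library as the floor, Ccl6 was at least 584-fold higher with FK506 and at least 244-fold higher under both drugs than in Control. Ccl9 was 0.251, 0.280 and 0.271 FPKM in Control, 0.248, 0.182 and 0.278 with metformin, 17.4, 15.8 and 17.0 with FK506, and 10.7, 9.29 and 8.85 under both drugs. The fitted level of Ccl9 was 53.3-fold that of Control with FK506, as a description. Adding metformin to FK506 lowered Ccl6 (log2 fold change -1.25, SE 0.14, adjusted p = 2.93e-05) and Ccl9 (-0.77, SE 0.0825, adjusted p = 2.77e-06), and the 2 groups did not overlap for either gene. The macrophage and monocyte markers were also high only with FK506, from at most 9.71 FPKM summed without it to at least 891 with it. When metformin was added to FK506 its sum was 891 to 1011 FPKM in place of 1321 to 1370, with 3 of the 9 tested higher and 1, Lyz2, lower. Summed levels of other myeloid lists were also lower then, at 21.2 to 21.3 FPKM in place of 31.2 to 40.7 for neutrophil markers (2 of 6 tested fell, S100a9 and Ltf), 54.3 to 56.7 in place of 87.0 to 91.3 for dendritic cell markers (4 of 5 fell) and 1.08 to 1.56 in place of 6.29 to 11.8 for basophil or mast cell markers. The part of such cells in these values was not tested.

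**Figure D3:**
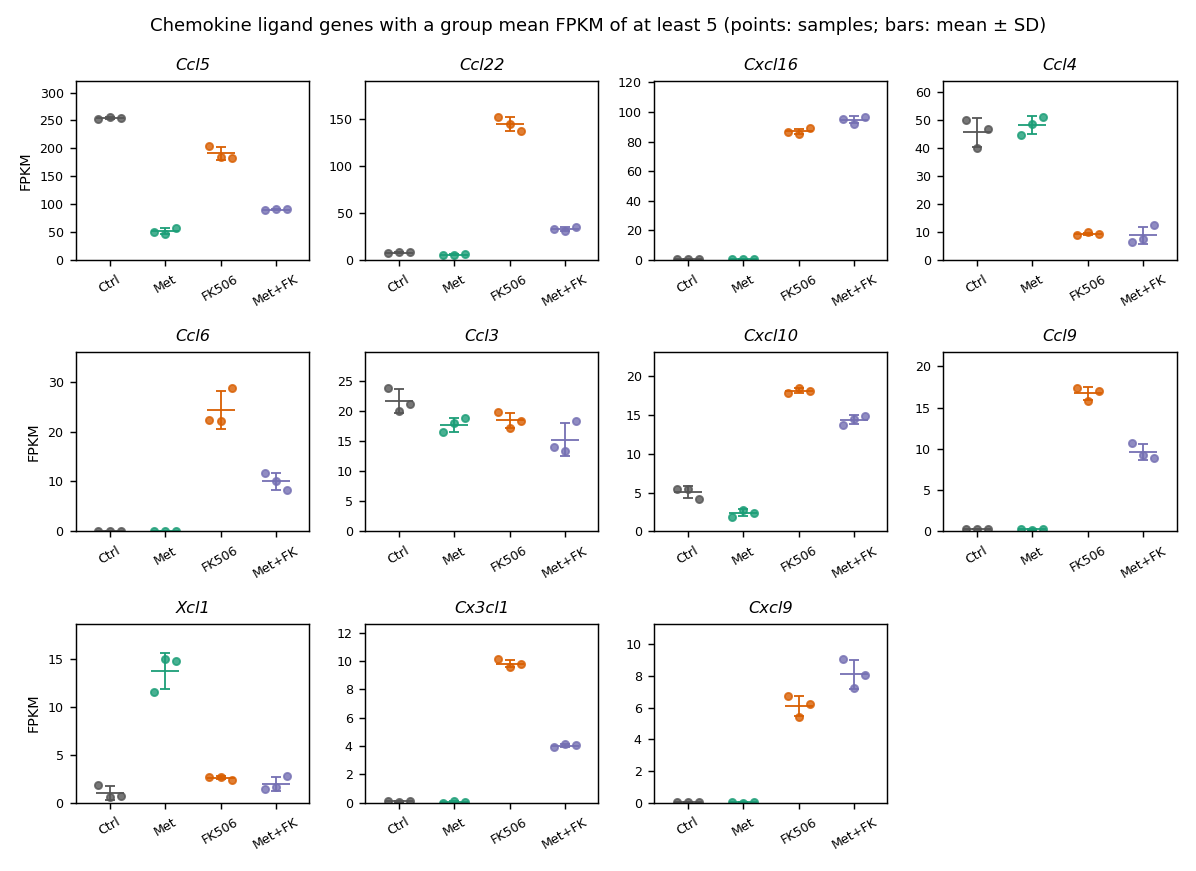
Level (FPKM) of the 11 ligand genes with a group mean of at least 5 FPKM, 1 panel per gene, with each sample as a point and the mean ± SD (n = 3) as bars. Ccl6 and Ccl9 lie at or near 0 without FK506, Xcl1 is high with metformin alone, and Ccl22 is highest with FK506 at 138 to 152 FPKM.

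The ligands of CCR4, Ccl22 and Ccl17, lie close together on chromosome 8, on either side of Cx3cl1, and the drugs moved Ccl22 in opposite directions. CCR4 is known on Th2 and regulatory T cells. Ccl22 (chr8:94745684-94751388, plus strand) was 7.11, 8.39 and 8.29 FPKM in Control, 5.21, 5.37 and 6.11 with metformin, 152, 145 and 138 with FK506, and 32.7, 30.8 and 34.9 under both drugs. No groups overlapped. FK506 raised Ccl22 15.7-fold (log2 fold change 3.97, SE 0.0692, adjusted p = 1.64e-17), and metformin added to FK506 lowered it 4.35-fold (-2.12, SE 0.0614, adjusted p = 1.05e-12). Without FK506 metformin lowered it only 1.46-fold (-0.54, SE 0.0764, adjusted p = 1.46e-05), and the difference between these changes was -1.58 (SE 0.0975, adjusted p = 1.63e-09). The 10 B cell markers shared this order of the FK506-containing groups, at 886 to 926 FPKM summed with FK506 and 427 to 458 under both drugs, and all 10 fell when metformin was added to FK506. The dendritic cell markers shared it as well, at 87.0 to 91.3 and 54.3 to 56.7 FPKM summed, and 4 of the 5 tested fell (Batf3, Flt3, Itgax and Zbtb46). With metformin alone, where Ccl22 fell, 8 of the 10 B cell markers rose and 1 fell. The dendritic cell markers summed to 61.2 to 63.4 FPKM in Control and 15.4 to 17.0 with metformin, where Batf3 fell (log2 fold change -2.40, adjusted p = 2.72e-11), Zbtb46 rose (1.06, adjusted p = 4.36e-10) and the other 3 tested did not pass. The part of these cells in the Ccl22 values was not tested.

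Ccl17 was at the edge of detection, with means of 0.109 FPKM in Control, 0.633 with metformin, 0.976 with FK506 and 0.416 under both drugs, and at most 49 counts in any sample. It rose with metformin (log2 fold change 1.89, SE 0.476, adjusted p = 0.0029) and was higher with FK506 (1.52, SE 0.48). Ccl17 needed cultures with FK506 to pass the filter, so its level with FK506 or both drugs against Control is a description. These count-based folds of 3.72 and 2.87 differ from the ratios of the mean FPKM, 5.81 and 8.97, and the 2 measures put the drugs in opposite order, so no order between metformin and FK506 is given. The combination did not pass against Control (0.88, SE 0.505, adjusted p = 0.116), but it passed when Metformin+FK506 replicate 2, the lowest of its group, was left out (1.26, adjusted p = 0.0264) and with limma on log2(TPM + 1) (0.65, adjusted p = 0.0488). The interaction was negative (-2.53, SE 0.647, adjusted p = 0.00433). The call of the combination below metformin (-1.01, SE 0.434, adjusted p = 0.0437) was lost without any sample other than Control replicate 2, Metformin replicate 3 and Metformin+FK506 replicate 3, at adjusted p between 0.0513 and 0.192.

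Cxcl16, the ligand of CXCR6 and a scavenger receptor for oxidized lipoprotein in its membrane-bound form, was near 0 without FK506 and high with it. It was 0.568, 0.810 and 0.679 FPKM in Control and 0.796, 0.984 and 0.557 with metformin, against 86.7, 85.1 and 88.9 with FK506 and 95.4, 91.9 and 96.7 under both drugs. The groups with and without FK506 lay far apart. FK506 raised it 111-fold (log2 fold change 6.79, SE 0.0965, adjusted p = 1.68e-18), metformin alone left it within the spread (0.081, SE 0.172, adjusted p = 0.719), and the combination against FK506 differed by 0.13 (SE 0.059, adjusted p = 0.107). That last difference was called by DESeq2 (0.12, adjusted p = 0.0301) and in a fit of the compared groups alone (0.13, adjusted p = 0.0407). The gene shares 552 bases with Zmynd15 on the other strand.

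Cx3cl1, which is made as a membrane-anchored protein and binds CX3CR1, lies between Ccl22 and Ccl17 at chr8:94772180-94782427. Its levels were 0.127, 0.0808 and 0.0851 FPKM in Control, 0, 0.0860 and 0.0574 with metformin, 10.1, 9.58 and 9.78 with FK506, and 3.91, 4.11 and 4.04 under both drugs. As a description, the fitted level with FK506 was 84.1-fold that of Control. Adding metformin to FK506 lowered it 2.40-fold (log2 fold change -1.26, SE 0.164, adjusted p = 2.15e-05). Ccl22, its neighbour, fell there too. For Cx3cl1 the interaction was not called (-0.22, SE 0.544, adjusted p = 0.776). With limma on log2(FPKM + 1) it was -1.04, but levels of at most 0.127 FPKM without FK506 hold the metformin change there near 0 on that scale. The limma value thus mostly restates the fall of the combination against FK506, and no p-value is given for it. The change with metformin alone rests on few counts and was not called (-1.04, adjusted p = 0.0739). It was called by DESeq2 (-1.05, adjusted p = 0.00584) and without Metformin replicate 2 (-1.75, adjusted p = 0.0141).

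Xcl1, the ligand of XCR1 on cross-presenting dendritic cells, was the ligand that metformin raised most. It was 1.85, 0.549 and 0.711 FPKM in Control, 11.5, 15.0 and 14.8 with metformin, 2.72, 2.72 and 2.42 with FK506, and 1.46, 1.63 and 2.82 under both drugs. Every Metformin sample was above every other sample, and Control replicate 1 overlapped the combination. Metformin raised Xcl1 13.0-fold (log2 fold change 3.70, SE 0.333, adjusted p = 8.95e-08). FK506 raised it 2.20-fold (1.14, SE 0.345, adjusted p = 0.00654), and with FK506 present metformin did not raise it (-0.40, SE 0.322, adjusted p = 0.374). Leaving out single samples gave log2 fold changes against Control of 3.41 to 4.37 with metformin and 0.84 to 1.80 with FK506, all still called. The interaction was -4.11 (SE 0.461, adjusted p = 1.96e-06), the largest in size of the 10 called. The combination against Control was not called (0.73, SE 0.355, adjusted p = 0.0678), but it was called without Control replicate 1 (1.40, adjusted p = 0.00083), without Metformin+FK506 replicate 1 (0.90, adjusted p = 0.0419) and by DESeq2 (0.74, adjusted p = 0.0327). Both CD8 markers also rose with metformin, from 9.01 to 9.52 FPKM summed in Control to 12.9 to 13.2. Both NK markers tested rose too, and the list of 6 summed to 1.28 to 1.52 FPKM in Control and 5.16 to 5.99 with metformin. The NK sum was higher still with FK506 (13.9 to 14.8 FPKM) and under both drugs (12.9 to 13.8), where Xcl1 was far below its level with metformin. The CD8 sum was 6.84 to 7.35 and 6.93 to 8.64 FPKM in these groups. The part of such cells in the Xcl1 values was not tested.

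Cxcl9 and Cxcl10, ligands of CXCR3 that interferon-gamma is known to induce, were both highest in cultures with FK506 and both lowered by metformin alone. Their promoters are printed because each holds a match to an outline of the interferon response element (GAAANNGAA on either strand), which 8.56% of all 32851 RefSeq promoters of the same length hold and which 6 of the 27 ligand genes with a promoter in the table hold. Each runs 300 bases from 250 before the start site, on the minus strand of GRCm38.p6, at chr5:92328030-92328329 for Cxcl9 and chr5:92348840-92349139 for Cxcl10, with the match in capitals.

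Cxcl9: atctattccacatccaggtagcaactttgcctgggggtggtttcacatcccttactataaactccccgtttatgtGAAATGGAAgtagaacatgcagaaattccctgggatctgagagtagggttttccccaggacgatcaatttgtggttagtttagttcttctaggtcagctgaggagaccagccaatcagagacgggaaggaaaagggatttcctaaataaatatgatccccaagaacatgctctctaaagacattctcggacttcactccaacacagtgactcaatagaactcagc

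Cxcl10: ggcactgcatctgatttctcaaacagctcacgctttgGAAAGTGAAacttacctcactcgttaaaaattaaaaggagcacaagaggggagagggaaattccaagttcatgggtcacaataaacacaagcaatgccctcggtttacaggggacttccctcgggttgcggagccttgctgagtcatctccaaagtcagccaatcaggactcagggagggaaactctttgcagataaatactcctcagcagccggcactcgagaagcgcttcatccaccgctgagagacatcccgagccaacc

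The match lies 175 bases before the start site in Cxcl9 and 213 bases before it in Cxcl10. It is a description of the letters and says nothing of binding. Cxcl10 was 5.50, 5.51 and 4.20 FPKM in Control, 1.90, 2.80 and 2.43 with metformin, 17.8, 18.5 and 18.1 with FK506, and 13.8, 14.5 and 14.9 under both drugs. Metformin lowered it 2.17-fold (log2 fold change -1.12, SE 0.136, adjusted p = 2.96e-06), and FK506 raised it 3.08-fold (1.62, SE 0.122, adjusted p = 2.72e-09). The combination lay below FK506 in every sample, by -0.31 (SE 0.116, adjusted p = 0.0546), and this difference passed without Control replicate 3, Metformin replicate 1 or Metformin replicate 2 (adjusted p = 0.036, 0.0303 and 0.0396) and with DESeq2 (adjusted p = 0.0201). The whole of Cxcl10 lies within the span of Art3 on the other strand, over 2252 bases.

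Cxcl9 differed from Cxcl10 in being near 0 without FK506 and higher with the combination than with FK506. It was 0.0467, 0.0569 and 0.0398 FPKM in Control, 0.0253, 0 and 0.0227 with metformin, 6.70, 5.42 and 6.23 with FK506, and 9.05, 7.22 and 8.09 under both drugs. The fitted level with FK506 was 102-fold that of Control, as a description, and the combination exceeded FK506 by a log2 fold change of 0.43 (SE 0.128, adjusted p = 0.0177). The latter was lost without FK506 replicate 2 (0.34, adjusted p = 0.0872) or Metformin+FK506 replicate 1 (0.34, adjusted p = 0.0814). The fall with metformin alone (-1.52, SE 0.558, adjusted p = 0.0299) rested on few counts and was lost without Control replicate 1 (-1.51, adjusted p = 0.0583), Control replicate 2 (-1.43, adjusted p = 0.0794) or Metformin replicate 2 (-0.95, adjusted p = 0.115). The interactions were 0.81 for Cxcl10 (SE 0.178, adjusted p = 0.0014) and 1.95 for Cxcl9 (SE 0.57, adjusted p = 0.0106).

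The ligands of CXCR2, Cxcl1, Cxcl2, Cxcl3 and Cxcl5, recruit neutrophils and lie together on chromosome 5. The promoters of Cxcl1, Cxcl2 and Cxcl3 are printed because each holds 2 matches to an outline of the kappa B site (GGNNNTTCC on either strand), which 18.5% of all promoters and 13 of the 27 ligand promoters hold. They lie on the plus strand at chr5:90890995-90891294, chr5:90903649-90903948 and chr5:90785851-90786150 (RefSeq, GRCm38.p6), with the matches in capitals. The promoters of Cxcl9 and Cxcl10 printed above also hold 2 matches each to the kappa B outline, which are not marked there.

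Cxcl1: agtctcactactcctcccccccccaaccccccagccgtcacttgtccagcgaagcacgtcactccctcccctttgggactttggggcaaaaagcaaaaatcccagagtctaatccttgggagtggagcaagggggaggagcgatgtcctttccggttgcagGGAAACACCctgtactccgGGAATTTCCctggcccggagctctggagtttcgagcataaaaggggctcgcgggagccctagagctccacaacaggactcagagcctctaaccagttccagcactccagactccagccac

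Cxcl2: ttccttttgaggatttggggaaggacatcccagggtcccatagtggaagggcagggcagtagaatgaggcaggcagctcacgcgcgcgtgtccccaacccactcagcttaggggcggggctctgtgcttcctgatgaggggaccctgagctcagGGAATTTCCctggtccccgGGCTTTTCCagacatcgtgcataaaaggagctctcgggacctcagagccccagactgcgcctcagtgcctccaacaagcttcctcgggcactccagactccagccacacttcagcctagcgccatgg

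Cxcl3: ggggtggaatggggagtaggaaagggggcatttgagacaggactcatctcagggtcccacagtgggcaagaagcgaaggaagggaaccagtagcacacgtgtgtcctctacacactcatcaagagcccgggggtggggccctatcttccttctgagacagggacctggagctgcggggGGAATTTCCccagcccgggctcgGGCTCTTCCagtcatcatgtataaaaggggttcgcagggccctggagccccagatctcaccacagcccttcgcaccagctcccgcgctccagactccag

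The letters GGAATTTCC occur in all 3 promoters, 70, 96 and 72 bases before the start site. The core of the NFAT site (GGAAAA on either strand) was present in 23.4% of all promoters and in 8 of the 27 ligand promoters, and in Cxcl2 it lies within the second kappa B match. Of the 4 genes, Cxcl3 was the only one above 0.5 FPKM in Control, at 1.46, 0.887 and 1.50 FPKM. It was 0.170, 0.332 and 0.224 FPKM with metformin, 3.91, 2.39 and 3.78 with FK506, and 2.71, 1.90 and 0.941 under both drugs, so that metformin lowered it (log2 fold change -2.40, SE 0.412, adjusted p = 0.000114) and FK506 raised it (1.17, SE 0.33, adjusted p = 0.00396). The combination overlapped FK506 (-0.83, SE 0.322, adjusted p = 0.0641), a difference that was called without FK506 replicate 2 (-1.03, adjusted p = 0.0381) or Metformin+FK506 replicate 1 (-1.19, adjusted p = 0.0157), and at adjusted p between 0.0395 and 0.0481 by DESeq2, by limma on log2(FPKM + 1) with and without quantile normalization and at a mean FPKM of at least 1. Its interaction of 1.57 (SE 0.527, adjusted p = 0.0226) was lost without any of Control replicate 3 (1.44, adjusted p = 0.0524), Metformin replicate 1 (1.38, adjusted p = 0.0656), Metformin replicate 3 (1.51, adjusted p = 0.0538), FK506 replicate 2 (1.38, adjusted p = 0.0507) or Metformin+FK506 replicate 1 (1.22, adjusted p = 0.0613).

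Cxcl1, Cxcl2 and Cxcl5 were at or near 0 without FK506. Cxcl2 was at most 0.0949 FPKM there, against 4.34, 4.24 and 5.12 with FK506 and 3.65, 3.29 and 3.80 under both drugs. Cxcl1 reached means of 1.42 FPKM with FK506 and 0.902 under both drugs, from 5 counts in all of Control. Cxcl5 had no count without FK506 and means of 0.747 and 0.522 FPKM with it, so that it was at least 20.8-fold higher with FK506 and at least 14.9-fold higher under both drugs than in Control. None of the 3 was called by edgeR between the combination and FK506, although every combination sample of Cxcl2 lay below every FK506 sample and limma on log2(FPKM + 1) called it (-0.28, adjusted p = 0.0181). With so few counts, leaving out Control replicate 1, the only Control sample with Cxcl2 counts, made Cxcl2 higher with metformin (4.91, adjusted p = 0.0212) and its interaction negative past the threshold (-5.24, adjusted p = 0.018). The neutrophil markers S100a8, S100a9, Elane, Mpo, Csf3r and Camp, which mark cells that these ligands attract, (6 of the 8 on the list) were at 0 in every Control and Metformin sample, whereas Ly6g was highest in Control, at 2.84 to 3.15 FPKM, and fell with either drug.

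The ligands of CCR2, which recruit monocytes, gave a similar pattern at low levels. Ccl2 was 4.33, 3.69 and 4.16 FPKM with FK506 and 2.15, 3.68 and 6.29 under both drugs, and was detected in only 1 of the 6 samples without FK506, at 0.255 FPKM in Control replicate 1. It was at least 56.5-fold higher with the combination than with metformin. Ccl7 was 2.69, 1.51 and 2.66 FPKM with FK506 and 2.46, 1.12 and 1.37 under both drugs, and was at least 22.9-fold higher with the combination than with metformin. The combination did not differ detectably from FK506 for Ccl2 (log2 fold change 0.010, SE 0.437, adjusted p = 0.991) or Ccl7 (-0.45, SE 0.407, adjusted p = 0.446). A fall of Ccl2 from its trace in Control to 0 with metformin was not called (adjusted p = 0.0828), but it passed without Control replicate 2 or Control replicate 3 (adjusted p = 0.041 and 0.0382), and without Control replicate 3 so did its interaction (adjusted p = 0.0498). Ccl12 did not pass the filter, at 0.272, 0.349 and 0.971 FPKM with FK506, and Ccl8 had no count in any sample.

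**Figure D4:**
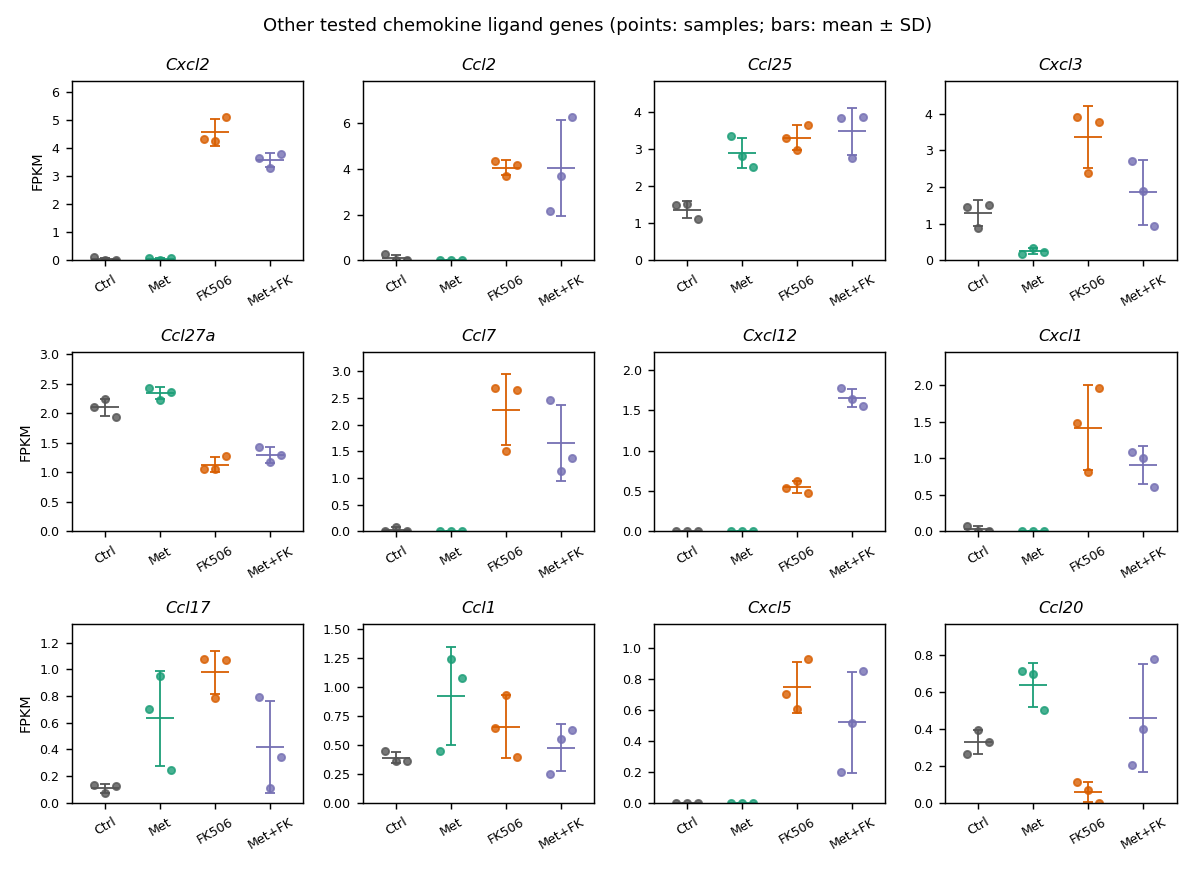
Level (FPKM) of the 12 tested ligand genes whose group means stay below 5 FPKM, 1 panel per gene, with each sample as a point and the mean ± SD (n = 3) as bars. Cxcl12 rises from 0.546 FPKM with FK506 to 1.66 with the combination, and Ccl20 is lowest with FK506.

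Cxcl12, the ligand of CXCR4 that stromal and endothelial cells are known to make, was higher with the combination than with FK506. It had no count in Control or Metformin and was 0.538, 0.625 and 0.475 FPKM with FK506 and 1.78, 1.64 and 1.55 under both drugs. It was at least 34.9-fold higher with FK506 and at least 109-fold higher under both drugs than in Control, and the combination exceeded FK506 3.11-fold (log2 fold change 1.64, SE 0.181, adjusted p = 2.7e-05). The endothelial genes Cdh5 (3.55 FPKM with FK506 and 9.66 under both drugs) and Kdr (2.52 and 5.45) rose with it, at 0.0472 and 0.0170 FPKM in Control. Other genes of the list did not, as Col1a1 fell from 2.21 FPKM with FK506 to 1.08 in Metformin+FK506 (log2 fold change -1.02, adjusted p = 0.0154), Col1a2 was at 1.54 and 0.752, Col3a1 at 0.257 and 0.132, and Pecam1, most of the sum, at 38.8 and 38.5. The stromal or endothelial list as a whole ran from 46.7 to 53.4 FPKM with FK506 and from 54.2 to 58.7 under both drugs, against 9.69 to 10.2 in Control and 10.2 to 10.9 with metformin. The part of such cells in the Cxcl12 values was not tested.

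Ccl20, the ligand of CCR6 and a product of Th17 cells among others, went the other way from most ligands, although on few counts. It was 0.265, 0.391 and 0.328 FPKM in Control, 0.715, 0.696 and 0.498 with metformin, 0.109, 0.0663 and 0 with FK506, and 0.202, 0.400 and 0.775 under both drugs, with at most 34 counts in a sample. FK506 lowered it (log2 fold change -2.37, SE 0.625, adjusted p = 0.00242), and adding metformin to FK506 raised it (2.62, SE 0.608, adjusted p = 0.0036). Leaving out single samples moved these changes between -3.10 and -1.90 and between 2.08 and 3.35, all still called. The FK506 group lay below all other samples. The interaction was not called (1.70, SE 0.783, adjusted p = 0.0878), but it was called without FK506 replicate 1 (2.44, adjusted p = 0.0489) or Metformin+FK506 replicate 1 (2.03, adjusted p = 0.0341). Without Metformin+FK506 replicate 3 the combination lay below metformin past the threshold (-1.19, adjusted p = 0.0252), against -0.67 with it (adjusted p = 0.188).

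Ccl25, the ligand of CCR9, was about 2-fold above Control with either drug and with both. Its means were 1.37 FPKM in Control, 2.89 with metformin, 3.31 with FK506 and 3.48 under both drugs, and the log2 fold changes against Control were 1.01, 1.07 and 1.09 (adjusted p = 0.000118, 2.97e-05 and 2.36e-05). The combination did not differ from FK506 beyond the spread (0.024, SE 0.165, adjusted p = 0.934), and the interaction was -0.99 (SE 0.241, adjusted p = 0.00298). Ccl1, the ligand of CCR8, had means of 0.388, 0.923, 0.657 and 0.477 FPKM in Control, Metformin, FK506 and Metformin+FK506. Its rise with metformin (1.21, SE 0.458, adjusted p = 0.0344) was lost without any of Control replicate 1 (1.29, adjusted p = 0.0593), Control replicate 2 (1.14, adjusted p = 0.0931), Control replicate 3 (1.18, adjusted p = 0.0848), Metformin replicate 2 (0.93, adjusted p = 0.143) or Metformin replicate 3 (1.09, adjusted p = 0.0984). Its fall with the combination against metformin (-1.09, SE 0.446, adjusted p = 0.0345) was lost without Metformin replicate 2 (-0.82, adjusted p = 0.15), Metformin replicate 3 (-0.98, adjusted p = 0.0978) or Metformin+FK506 replicate 1 (-0.78, adjusted p = 0.13). Ccl27a, a ligand of CCR10, was 2.10 FPKM in Control, 2.34 with metformin, 1.13 with FK506 and 1.30 under both drugs, and fell with FK506 (-0.97, SE 0.138, adjusted p = 6.7e-06). Its values are uncertain because Ccl27b, at 0.0873 to 0.230 FPKM in the group means, is a near-identical copy.

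The other 14 genes did not pass the filter. Ccl8, Ccl11, Ccl26 and Cxcl15 had no count in any sample, and Ccl12, Ccl19, Ccl21a, Ccl21b, Ccl24, Ccl27b, Ccl28, Cxcl13, Cxcl14 and Cxcl17 stayed at or below 0.971 FPKM in every sample. Among these are the homeostatic ligands of lymphoid tissue, Ccl19 and Ccl21a for CCR7 and Cxcl13 for CXCR5. Cxcl11, also a ligand of CXCR3, is listed as a transcribed pseudogene and is no member, and it did not exceed 0.238 FPKM.

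The receptors of these ligands were compared as the other side of the pathway. Of 18 receptor genes, 12 were tested, and with FK506 10 rose and 2 fell (Ccr4 and Ccr8) against Control, where 80.9% of all genes were called, and the counts with the combination were the same, where 81.7% were called. Of the 12, Ccr3, Ccr6 and Ccr9 passed the filter only through cultures with FK506. Ccr1, which reached 0.5 FPKM in 1 sample without FK506, needed them as well, so the count of rises is a description. For the ligands with the clearest responses, the receptor moved with the ligand in some cases and against it in others. Cxcr6, the receptor of Cxcl16, was 0.769 ± 0.113 FPKM in Control (SD, n = 3), 1.09 ± 0.105 with metformin, 31.3 ± 1.24 with FK506 and 55.8 ± 1.07 under both drugs, and it rose when metformin was added to FK506 (log2 fold change 0.86, adjusted p = 8.6e-09). Cxcr3, the receptor of Cxcl9 and Cxcl10, followed the same order as Cxcr6 at 4.74 ± 0.824, 7.23 ± 0.0773, 33.7 ± 0.898 and 54.9 ± 4.16 FPKM. With metformin alone Cxcr3 rose (0.58, adjusted p = 4.13e-05), whereas Cxcl9 and Cxcl10 were called lower. When metformin was added to FK506, Cxcr3 rose (0.73, adjusted p = 1.45e-06), as did Cxcl9, whereas Cxcl10 lay lower without being called (-0.31, adjusted p = 0.0546). Ccr4, the receptor of Ccl22, went the other way with FK506, at 66.1 ± 1.43 FPKM in Control, 21.1 ± 0.385 with metformin, 10.7 ± 0.778 with FK506 and 11.4 ± 0.607 under both drugs. On the log2 scale Ccr4 fell by 2.87 with FK506 (adjusted p = 3.33e-17), where Ccl22 rose. With metformin alone Ccr4 fell by 1.68 (adjusted p = 1.05e-13), and Ccl22 fell as well. When metformin was added to FK506, Ccl22 fell, whereas Ccr4 was not called (0.13, adjusted p = 0.0852). The receptors of Xcl1 and Cx3cl1 did not pass the filter, with Xcr1 at 0 in every Control and Metformin sample and Cx3cr1 at or below 0.458 FPKM. Of the 5 atypical receptors, which as a class bind chemokines without signalling through G proteins, only Ackr3 and Ccrl2 were tested, and with FK506 Ccrl2 fell (-1.38, adjusted p = 5.8e-10). Ackr3 passed the filter only through cultures with FK506, at means of 0.0329 FPKM in Control and 2.34 with FK506, so its higher level there is likewise a description.

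**Figure D5:**
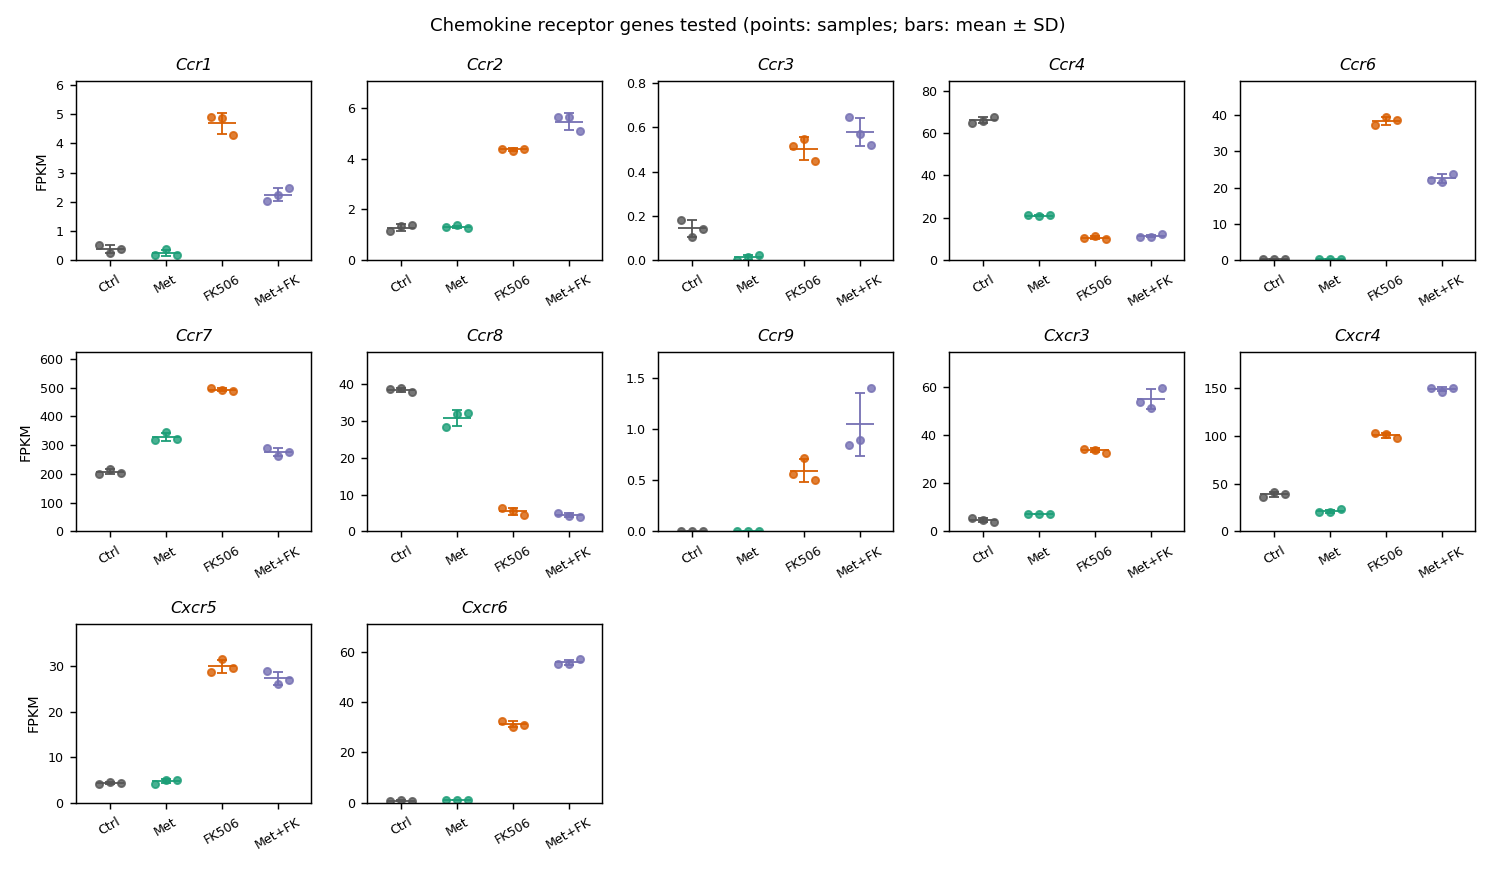
Level (FPKM) of 12 tested chemokine receptor genes, 1 panel per gene, with each sample as a point and the mean ± SD (n = 3) as bars. Cxcr3 and Cxcr6 are highest with the combination (54.9 and 55.8 FPKM), and Ccr4 is highest in Control (66.1 FPKM).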

How the data were processed

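Poly(A) RNA of 12 samples in 4 groups was sequenced, and samples were grouped by the treatment given in the labels. The authors deposited read counts per gene, FPKM values and TPM values for 45777 genes; per the submitters' processing notes the tools were bcl2fastq 2.20.0, Trimmomatic, HISAT2 2.1.0 and StringTie 2.1.3b with build mm10, the UCSC name of GRCm38. How strand and reads shared between genes were treated is not given in the sources used here, so overlapping genes and near-identical copies are uncertain. Depth was 43402632 to 64290105 counts per sample, and a group at 0 was set against a floor of 3 counts per library, which covers counting error only.

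The 15197 genes that reached 0.5 FPKM in 3 or more samples were tested with edgeR 4.0.16 in R 4.3.3 on the deposited counts (TMM, glmQLFit and glmQLFTest, 4 groups in 1 fit, 8 residual degrees of freedom). P-values were adjusted by Benjamini-Hochberg over these genes and called under 0.05. The ratio of Ccl4 to Ccl3 was compared by an exact permutation test. The scripts were tested on simulated data. The alternatives were DESeq2 1.42.0, other size factors, limma 3.58.1 on log2 of FPKM or TPM, other filters, a replicate block, a fit of the compared groups alone and leaving out each sample. The TPM alternative was chosen after seeing the data.

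All 37 genes that meet the naming rule were named and ordered by receptor, and values in every sample were given for those with a group mean of at least 5 FPKM and for some others. The members, receptor and marker lists were chosen with earlier results of these data known. Gene positions and promoters came from RefSeq on GRCm38.p6, where all 37 genes matched and 27 had a promoter. The replicate numbers did not pair the samples, since the correlations of same-numbered samples ran from -0.0713 to 0.0500, and no pair of replicates agreed within sampling noise. A further receptor gene is not reported here.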

Additional observations from a re-analysis of the deposited data

Results flagged for a closer look

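The effect of metformin on the log2 scale differed between cultures with and without FK506 for 10 of the 23 tested ligand genes, in a fit that called 46.5% of all genes for this interaction (quasi-likelihood test of edgeR, Benjamini-Hochberg adjusted). It was less negative or more positive with FK506 present for Ccl5 (1.28, adjusted p = 2.78e-09), Cxcl10 (0.81, adjusted p = 0.0014), Cxcl3 (1.57, adjusted p = 0.0226) and Cxcl9 (1.95, adjusted p = 0.0106), each of which was called lower with metformin alone. The fall of Cxcl9 rested on few counts. It did not pass in a fit of the compared groups alone (-1.52, adjusted p = 0.0919) or with limma on log2(FPKM + 1) (-0.044, adjusted p = 0.709). It was more negative or less positive with FK506 present for Ccl22 (-1.58, adjusted p = 1.63e-09), Xcl1 (-4.11, adjusted p = 1.96e-06), Ccl25 (-0.99, adjusted p = 0.00298), Ccl17 (-2.53, adjusted p = 0.00433), Ccl9 (-0.57, adjusted p = 0.0288) and Ccl1 (-1.66, adjusted p = 0.0462).

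The calls of Ccl9, Ccl1 and Cxcl3 were lost when single samples were left out. That of Cxcl3 was lost without Control replicate 3, Metformin replicate 1, Metformin replicate 3, FK506 replicate 2 or Metformin+FK506 replicate 1 (adjusted p = 0.0524, 0.0656, 0.0538, 0.0507 and 0.0613), and under each limma setting, with 0.23 (adjusted p = 0.57) on log2(FPKM + 1). That of Ccl9 was lost without Control replicate 1 (-0.53, adjusted p = 0.0671), Metformin replicate 1 (-0.54, adjusted p = 0.0742) or Metformin replicate 3 (-0.43, adjusted p = 0.135). That of Ccl1 was lost without Control replicate 1 (-1.75, adjusted p = 0.064), Control replicate 2 (-1.59, adjusted p = 0.0895), Control replicate 3 (-1.64, adjusted p = 0.0832), Metformin replicate 2 (-1.39, adjusted p = 0.119), Metformin replicate 3 (-1.54, adjusted p = 0.0934), FK506 replicate 1 (-1.68, adjusted p = 0.0714), FK506 replicate 2 (-1.32, adjusted p = 0.135), Metformin+FK506 replicate 1 (-1.35, adjusted p = 0.0924) or Metformin+FK506 replicate 2 (-1.79, adjusted p = 0.0528). For Ccl6, Cxcl5 and Cxcl12 both groups without FK506 were at 0, so the count model gave no usable interaction. On log2(FPKM + 1), where such groups count as unchanged by metformin, limma gave -1.20 for Ccl6, 0.78 for Cxcl12 and -0.22 for Cxcl5. These values only restate the difference between the combination and FK506, so they are a description with no p-value given.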

How the results depend on the processing

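Asking for a log2 change of at least 1 as well left 1589 of all genes called for metformin against Control, 5556 for FK506, 5677 for the combination, 640 for the combination against FK506, 4897 against metformin and 1813 for the interaction, and 2 ligand genes lower with FK506 and 2 under both drugs. DESeq2 called 10 ligand genes lower with metformin. With a mean FPKM of at least 1, where fewer genes were tested, 2 ligand genes were higher with metformin and 1 was higher with the combination than with FK506. With limma on log2(FPKM + 1) 9 were lower with the combination than with FK506. Against metformin, 3 were lower with the combination on log2(FPKM + 1), 3 on log2(FPKM + 0.1) and 3 on log2(TPM + 1). On log2(TPM + 1), Ccl3 turned from a fall to 0.0070 with FK506 and to 0.089 under both drugs against metformin (adjusted p = 0.951 and 0.432), on a scale where the median of all genes was 0.42 and 0.45. The cause was not tested.

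Leaving out each sample in turn gave these ranges for ligand genes. Against Control, 3 to 4 were higher and 4 to 7 lower with metformin, 17 to 17 and 5 to 5 with FK506, and 14 to 15 and 4 to 4 under both drugs. Among those higher with FK506 or both drugs, 10 passed the filter only through cultures with FK506, so these counts carry no weight as support. The combination gave 2 to 3 higher and 5 to 7 lower against FK506, and 15 to 15 and 4 to 7 against metformin. The interaction gave 3 to 5 and 4 to 7. Of all genes, 7753 to 8821, 11901 to 12477 and 11990 to 12392 were called against Control, 3672 to 4745 and 11427 to 11868 for the combination against FK506 and metformin, and 6485 to 7093 for the interaction. With the replicate number as a block, which did not pair the samples, 8312 of all genes were called for metformin, 17 ligand genes rose and 5 fell with FK506, and 2 member calls were lost, Ccl17 for the combination against metformin and Ccl1 for the interaction. Over all member values and alternatives, 2830 kept direction and side of the threshold, 59 gained a call, 80 lost it and 2 reversed. Genes under about 50 counts, such as Ccl1, Ccl17 and Ccl20, are limited by depth.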

Other observations

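Pf4 and Ppbp, platelet chemokines of the CXC type whose symbols fall outside the naming rule, were also near 0 without FK506. Pf4 had means of 0.0366 FPKM in Control, 0.0189 with metformin, 7.12 with FK506 and 11.3 under both drugs, and passed the filter only through cultures with FK506, so the higher levels there are a description. Ppbp, which passed the filter in the same way, had means of 3.17 FPKM with FK506 and 1.09 under both drugs, and the combination lowered it against FK506 (-1.49, adjusted p = 0.0122). Both genes are in the list of platelet markers.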
